A study of Mus musculus with 27 samples.

Results

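The genes described here encode subunits of the NMDA and AMPA receptors, the main fast glutamate receptors of brain synapses. They were taken as the 10 genes Grin1, Grin2a, Grin2b, Grin2c, Grin2d, Grin3a, Gria1, Gria2, Gria3 and Gria4, and a probe set was used when its annotation named exactly 1 of them. Of these 10 genes 9 had such a probe set, with 21 probe sets in all, out of 18194 genes and 34958 probe sets annotated to a single gene. A total of 18 member probe sets passed the filter on low signal, which left 8 member genes among the 13527 genes tested. Grin1 had no probe set annotated to it alone and is not analysed here, and the probe set of Grin2a was too dim to be tested.

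An NMDA receptor pairs Grin1 subunits with Grin2 or Grin3 subunits, and the Grin2 subunit sets how long the channel stays open. In the cerebellum Grin2b is the subunit of precursors and young granule neurons, and it gives way to Grin2a and Grin2c as granule neurons mature and receive mossy fibre input. AMPA receptors are assembled from Gria1 to Gria4, and the edited Gria2 subunit keeps calcium out of the channel.

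Total RNA of mouse cerebellum was measured on 27 Affymetrix arrays. Tumour samples came from Math1-cre:SmoM2 (3 arrays), Tlx3-cre:SmoM2 (3 arrays), Olig2-tva-cre:SmoM2 (7 arrays), hGFAP-cre:SmoM2 (6 arrays) and Ptc1+/- mice (2 arrays). SmoM2 is an always active form of the Hedgehog transducer Smoothened, switched on by cre in the cells where the named driver is active, and Ptc1+/- mice lack 1 copy of the gene for the Hedgehog receptor Patched. The 6 controls were cerebellar tissue without tumour from mice that carried such alleles themselves: controls 1 and 2 from Olig2-tva-cre:SmoM2, control 3 from hGFAP-cre:SmoM2, controls 4 and 5 from Mxi1-cre:SmoM2 and control 6 from Ptc1+/- mice. The controls are therefore not wild-type tissue, and none came from a Math1-cre or Tlx3-cre line. Ages are not given in the sources used here. The tumours are called biological replicates without naming animals, so a p-value here speaks only of the spread among these arrays, which may be technical.

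Values are array signals rescaled to a common level and put on a log2 scale, with a floor at 3.37 (a signal of 10.3) below which values have no order. The median of the whole table was 5.51 on this scale. The arrays differed 4.84-fold in brightness before rescaling, and 5 of the 7 dimmest were Olig2-tva-cre:SmoM2 tumours. The log2 ratio of 3′ to 5′ control probe sets, which rises as RNA is degraded, ran from -0.15 to 1.88 and was at least 1.67 on 5 arrays (hGFAP-cre:SmoM2 tumours 4 and 6, Olig2-tva-cre:SmoM2 tumours 3 and 4, and control 1). Levels of different probe sets cannot be compared with each other, so a level is read only against that of the same probe set on other arrays. Marker sums add different probe sets, so that the brightest weigh most, and are read only between arrays. Of the cerebellar region markers, Zic1 had a log2 level of 12.47 ± 0.35 (SD, n = 6) in controls and group means of 12.56 to 12.83 in tumours, and En2 fell by 1.41 in tumours on the log2 scale (limma, adjusted p = 1.26e-06).

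Receptor subunit transcripts were lower in tumours than in cerebellar tissue without tumour or did not differ detectably, and none was called higher. With all 5 tumour groups averaged, 5 of the 8 tested members fell (Grin2c, Grin2d, Gria1, Gria3 and Gria4) at a limma adjusted p under 0.05, where 25.6% of all genes fell, 26.8% rose and 52.4% did either. The count of members that rose was 0, also at an unadjusted limma p under 0.05. The median log2 difference was -1.19 over the 8 members and 0.02 over all genes tested. Grin2c, Gria3 and Gria4 were lower on all 21 tumour arrays than on every control array, a separation that 9.68% of genes showed, and no member was above every control on all of them, as 8.14% of genes were. In bulk tissue, fewer cells of a type cannot be told apart from less RNA per cell.

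**Figure D1:**
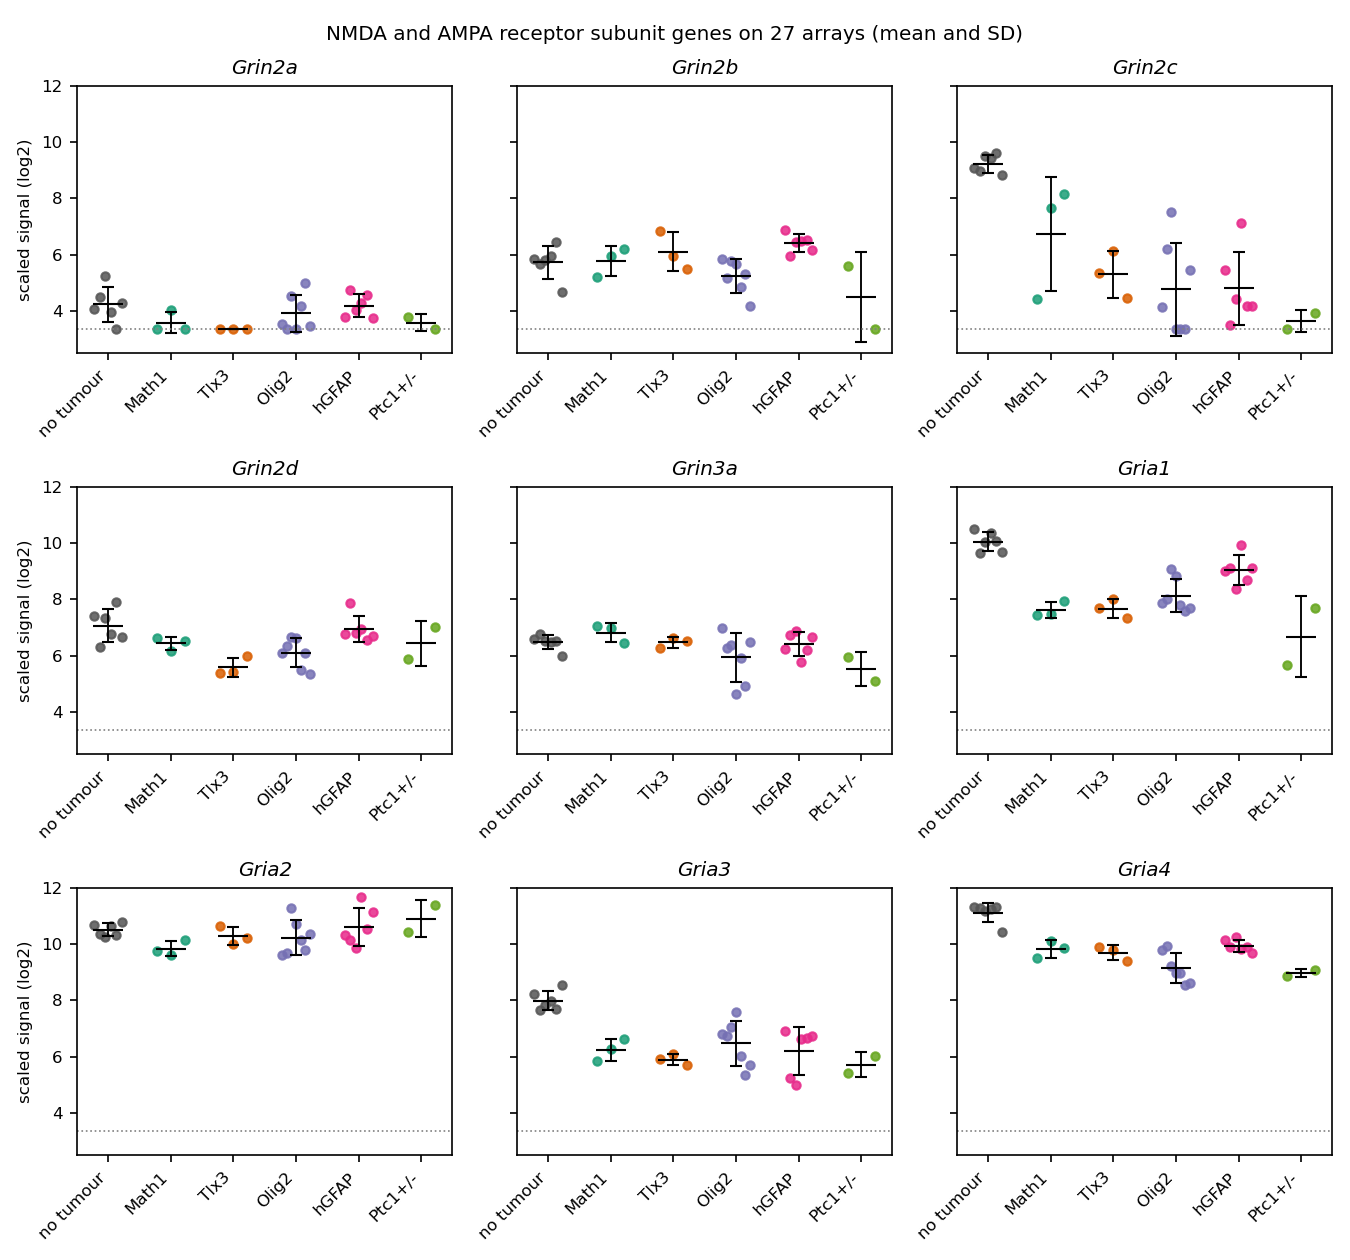
Scaled log2 signal (vertical axis) of 9 member genes on each of the 27 arrays, by group (horizontal axis: tissue without tumour, then tumours by driver or Ptc1+/-), with 1 point per array, bars for the mean and SD and a dotted line at the floor of 3.37. Grin2c, Gria3 and Gria4 lie below every control on all 21 tumour arrays, while Grin2b, Grin3a and this probe set of Gria2 overlap the controls.

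Grin2c, the NMDA receptor subunit of mature granule neurons, showed the largest difference of the 8 members. Its 6 controls lay close together at log2 levels of 9.08, 8.97, 9.51, 9.44, 9.62 and 8.84 (controls 1 to 6). Levels in Math1-cre:SmoM2 tumours were 4.42, 7.65 and 8.17, and in Tlx3-cre:SmoM2 tumours 5.33, 6.13 and 4.44. The tumours thus spread over a much wider range than the controls, and the brightest of them, a Math1-cre:SmoM2 tumour, still lay below the dimmest control. Among Olig2-tva-cre:SmoM2 tumours the lowest level was 3.37, the median 4.14 and the highest 7.51, with 3 of 7 at the floor. Among hGFAP-cre:SmoM2 tumours the lowest was 3.50, the median 4.31 and the highest 7.12, and the Ptc1+/- tumours measured 3.37 and 3.92. No tumour array of any group reached the control range.

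The mean log2 difference of Grin2c in all tumours was -4.19 (SE 0.54, 95% interval -5.30 to -3.08, limma adjusted p = 1.58e-07), an 18.2-fold lower level. Since 4 tumour arrays were at the floor, this understates the difference for the Olig2-tva-cre:SmoM2 and Ptc1+/- tumours. By group the log2 difference was -2.50 (SE 0.81) in Math1-cre:SmoM2, -3.94 (SE 0.81) in Tlx3-cre:SmoM2, -4.47 (SE 0.64) in Olig2-tva-cre:SmoM2, -4.43 (SE 0.66) in hGFAP-cre:SmoM2 and -5.60 (SE 0.93) in Ptc1+/- tumours. Each passed the limma threshold, with adjusted p-values from 9.04e-07 in Olig2-tva-cre:SmoM2 to 0.0150 in Math1-cre:SmoM2 tumours. The Math1-cre:SmoM2 call rested on tumour 1, and without it the difference was -1.33 (adjusted p = 0.256). Beyond controls at the top, all neighbouring tumour groups in the order of Grin2c means overlapped in range.

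The RefSeq promoter of Grin2c is shown because this gene had the largest change, as the 250 bases before the transcript start at chr11:115267244-115267493 (minus strand, GRCm38.p6), 5′ to 3′, with capitals for GC boxes (GGGCGG, searched on both strands).
Grin2c: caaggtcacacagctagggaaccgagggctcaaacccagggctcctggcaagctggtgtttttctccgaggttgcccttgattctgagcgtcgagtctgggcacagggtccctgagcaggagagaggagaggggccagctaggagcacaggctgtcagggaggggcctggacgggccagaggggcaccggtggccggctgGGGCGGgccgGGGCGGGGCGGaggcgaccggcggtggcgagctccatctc
It held 3 GC boxes, within the 50 bases before the start, the last pair overlapping by 1 base, and no E-box (CANNTG, the core that bHLH factors such as Atoh1 and Neurod1 bind). Of 32851 RefSeq promoter windows of this length 32.7% held a GC box and 66.2% an E-box. The table of promoters had entries for 5 of the 10 members (Grin1, Grin2c, Grin2d, Gria2 and Gria4).

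Grin2b, the NMDA receptor subunit of immature neurons, had no detectable difference in all tumours. Its controls measured 5.84, 5.66, 5.82, 5.97, 6.44 and 4.68, close to the table median. The Math1-cre:SmoM2 tumours measured 5.19, 5.97 and 6.19, the Tlx3-cre:SmoM2 tumours 6.86, 5.97 and 5.50, and the Ptc1+/- tumours 5.62 and 3.37. Olig2-tva-cre:SmoM2 tumours ranged from 4.17 to 5.83 (median 5.30) and hGFAP-cre:SmoM2 tumours from 5.94 to 6.88 (median 6.48). All groups overlapped the controls, 4 of the 6 hGFAP-cre:SmoM2 tumours lay above every control and 1 Ptc1+/- tumour was at the floor.

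The log2 difference of Grin2b was -0.12 in all tumours (SE 0.29, 95% interval -0.71 to 0.46, limma adjusted p = 0.747). It was 0.05 in Math1-cre:SmoM2, 0.37 in Tlx3-cre:SmoM2, -0.48 in Olig2-tva-cre:SmoM2 and 0.68 in hGFAP-cre:SmoM2 tumours, none of them called. Both of the last values passed under other settings, in hGFAP-cre:SmoM2 tumours as higher with array brightness as a covariate (0.95, limma adjusted p = 0.0265), and in Olig2-tva-cre:SmoM2 tumours as lower with no scaling (-1.08, 0.0306) and with the probe set of largest variance (-1.03, 0.0430). In Ptc1+/- tumours it was -1.24 (SE 0.49, limma adjusted p = 0.0488), a call that rested on tumour 2, without which the difference was -0.12 (adjusted p = 0.908). Of the 4 probe sets of Grin2b 3 passed the filter, and in all tumours the other 2 that passed differed by 0.05 (SE 0.36) and -0.63 (SE 0.35), neither called. In Ptc1+/- tumours they differed by 0.49 (SE 0.61) and -1.02 (SE 0.61), again neither called. Ptc1+/- tumour 2, at the floor for the probe set used, measured 6.64 by the former of them.

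Grin2a, the other mature Grin2 subunit, was dim throughout. Its only probe set was above the table median on 0 of 27 arrays and at the floor on 9, among them all 3 Tlx3-cre:SmoM2 tumours. The controls measured 4.08, 4.49, 5.26, 3.96, 3.37 and 4.28, and the highest tumour array 4.98. With the deposited values holding no detection calls here, these levels may be background, and Grin2a was not tested against controls on its own.

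The developmental subunit was then set against the mature ones within each array. This removes the brightness of the array except where a signal is at the floor. Grin2c was at the floor on 4 tumour arrays and Grin2b on 1, so that each Ptc1+/- value of their difference holds a floored signal. Grin2b minus Grin2c on the log2 scale was -3.24, -3.31, -3.69, -3.48, -3.17 and -4.17 in the 6 controls. In tumours it was 0.77, -1.68 and -1.97 for Math1-cre:SmoM2, 1.52, -0.16 and 1.05 for Tlx3-cre:SmoM2 and 2.25 and -0.56 for Ptc1+/-. It ran from -1.73 to 2.29 (median 1.49) for Olig2-tva-cre:SmoM2 and from -0.62 to 2.45 (median 2.01) for hGFAP-cre:SmoM2 tumours. All 21 tumour arrays were above all 6 controls. Since the probe sets differ in brightness, a value of 0 does not mark equal transcript levels, and only the shift between groups can be read.

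The mean of Grin2b minus Grin2c was 0.67 ± 1.56 (SD, n = 21) in tumours and -3.51 ± 0.37 (SD, n = 6) in controls, a shift of 4.18. A two-sided exact permutation test over all 296010 splits gave p = 3.38e-06, the smallest it can give, or 6.08e-05 after Benjamini-Hochberg adjustment over the 18 within-array tests. With the tumour groups averaged, Grin2c alone differed by -4.19 and Grin2b by -0.12. The test thus largely repeats the fall of Grin2c and is not separate evidence of a change in Grin2b. The shift was 2.55 in Math1-cre:SmoM2 and 4.31 in Tlx3-cre:SmoM2 tumours (exact permutation, adjusted p = 0.0238 for each). With any 1 of the 3 tumours left out the shift was 1.68 to 3.05 in the former and 3.95 to 4.80 in the latter, where the few arrays left cannot give an exact permutation p below 0.0357. It was 3.98 in Olig2-tva-cre:SmoM2 and 5.11 in hGFAP-cre:SmoM2 tumours (exact permutation, adjusted p = 0.00649 for each). In Ptc1+/- tumours it was 4.36, where 2 tumours against 6 controls cannot give an exact permutation p below 0.0357 (adjusted 0.0584).

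Against Grin2a the picture differed. Grin2b minus Grin2a was 1.87 ± 0.90 (SD, n = 21) in tumours and 1.49 ± 1.00 (SD, n = 6) in controls, a difference of 0.38 (exact permutation p = 0.386, adjusted 0.435). The arrays overlapped, with 2 tumours above and 2 below all controls. Grin2a minus Grin2c rose by 3.81 (exact permutation p = 1.35e-05, adjusted 0.000122), with 20 of 21 tumour arrays above all controls. A difference with Grin2a rests on values at or near the floor.

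**Figure D2:**
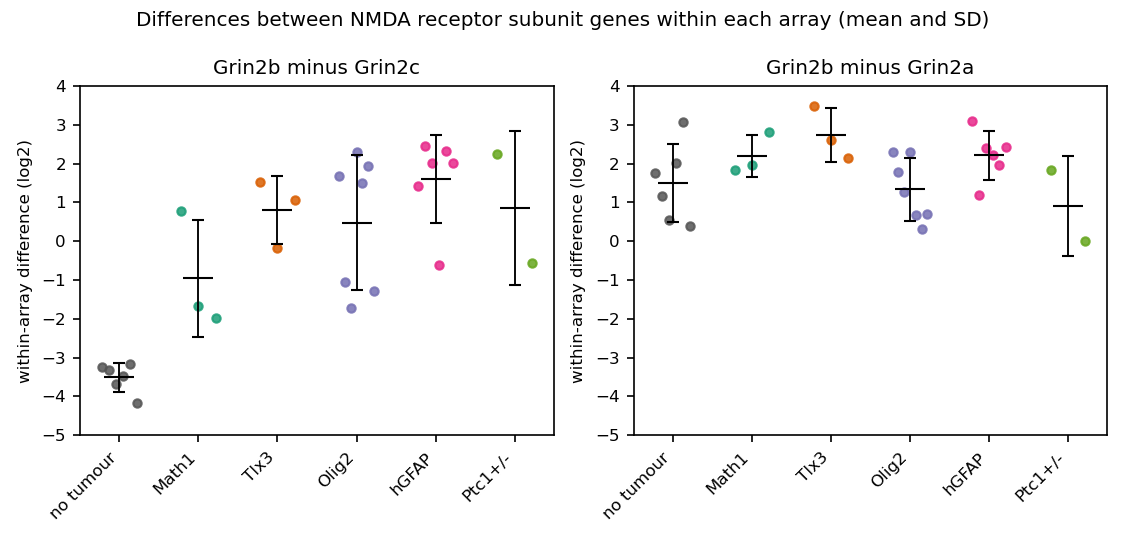
Within-array log2 difference (vertical axis) of Grin2b minus Grin2c (left) and Grin2b minus Grin2a (right) by group, with 1 point per array and bars for the mean and SD. The 6 controls lie between -4.17 and -3.17 on the left, below all 21 tumour arrays, and overlap the tumours on the right.

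Grin2d, a subunit of slowly closing receptors found early in development and in some interneurons, fell less. Its controls measured 7.43, 6.30, 7.33, 6.77, 7.93 and 6.66, the Math1-cre:SmoM2 tumours 6.62, 6.18 and 6.51, and the Tlx3-cre:SmoM2 tumours 5.37, 5.41 and 5.98. Olig2-tva-cre:SmoM2 tumours ranged from 5.37 to 6.66 (median 6.11), hGFAP-cre:SmoM2 tumours from 6.57 to 7.86 (median 6.80), and the Ptc1+/- tumours measured 5.87 and 7.00. Only the Tlx3-cre:SmoM2 tumours lay wholly below the controls, and the hGFAP-cre:SmoM2 tumours lay within their range. The log2 difference in all tumours was -0.77 (SE 0.23, limma adjusted p = 0.00678), or 1.70-fold, and -0.62 (adjusted p = 0.0570) without the 2 controls from Mxi1-cre:SmoM2 mice. It was called in Tlx3-cre:SmoM2 (-1.48, SE 0.35, limma adjusted p = 0.00108) and Olig2-tva-cre:SmoM2 tumours (-0.96, SE 0.27, limma adjusted p = 0.00416). The former call was lost with no scaling (-1.10, adjusted p = 0.0959) and the latter without the 7 dimmest arrays (-0.83, adjusted p = 0.0673), 5 of which are Olig2-tva-cre:SmoM2 tumours. A second probe set of Grin2d failed the filter, stood at the floor on 5 of 6 controls and reached at most 5.63 in tumours. It lay above all controls on 17 of 21 tumour arrays, so that the pair of probe sets ran in opposite directions.

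Grin3a, which lowers the calcium flow of receptors that contain it, did not differ detectably. Its controls measured 6.61, 6.76, 6.51, 6.50, 6.53 and 5.99, and the tumours ranged from 4.65 in an Olig2-tva-cre:SmoM2 tumour to 7.04 in a Math1-cre:SmoM2 tumour. The tumours thus lay on both sides of the controls, with 6 of 21 below and 4 above all of them. The log2 difference in all tumours was -0.24 (SE 0.25, 95% interval -0.75 to 0.27, limma adjusted p = 0.440), and no tumour group was called. In Ptc1+/- tumours the difference was -0.95 (limma adjusted p = 0.0835), and it passed in 5 of 45 alternatives, with -2.05 (adjusted p = 0.00822) under no scaling. In Olig2-tva-cre:SmoM2 tumours it was -0.54 and passed in 2, with no scaling (-1.21, adjusted p = 0.0168) and without tumour 1 (-0.71, adjusted p = 0.0392). The other probe sets of Grin3a differed by 0.34 (SE 0.28) and -0.19 (SE 0.24) in all tumours, neither called.

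Gria1, an AMPA receptor subunit of Purkinje cells and Bergmann glia in the cerebellum, fell in every tumour group. Its controls measured 10.52, 9.66, 10.04, 10.35, 10.08 and 9.70. Levels in Math1-cre:SmoM2 tumours were 7.45, 7.48 and 7.95, in Tlx3-cre:SmoM2 tumours 7.69, 8.01 and 7.33, and in Ptc1+/- tumours 5.67 and 7.69. Olig2-tva-cre:SmoM2 tumours ranged from 7.60 to 9.09 (median 7.88) and hGFAP-cre:SmoM2 tumours from 8.39 to 9.93 (median 9.07). The hGFAP-cre:SmoM2 tumours were nearest to the controls, and 1 of them, tumour 4, reached into the control range, while the other 20 tumour arrays lay below it.

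The log2 difference of Gria1 was -2.22 in all tumours (SE 0.24, limma adjusted p = 7.13e-09), a 4.67-fold lower level. It was -2.43 (SE 0.36) in Math1-cre:SmoM2, -2.38 (SE 0.36) in Tlx3-cre:SmoM2, -1.92 (SE 0.29) in Olig2-tva-cre:SmoM2 and -3.38 (SE 0.42) in Ptc1+/- tumours. In hGFAP-cre:SmoM2 tumours it was -1.01 (SE 0.30, limma adjusted p = 0.00686). Tumour 4 of that group had the highest 3′ to 5′ ratio of all arrays, and without the 5 arrays of highest ratio the difference was -1.16 (adjusted p = 0.00160). The second probe set of Gria1 differed by -2.35 (SE 0.28) in all tumours.

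Gria3, another AMPA receptor subunit, fell in each group. Its controls measured 8.24, 7.67, 7.83, 7.98, 7.70 and 8.54. The Math1-cre:SmoM2 tumours measured 5.83, 6.26 and 6.64, the Tlx3-cre:SmoM2 tumours 5.91, 6.09 and 5.70, and the Ptc1+/- tumours 5.42 and 6.02. Olig2-tva-cre:SmoM2 tumours ranged from 5.36 to 7.61 (median 6.75) and hGFAP-cre:SmoM2 tumours from 5.00 to 6.92 (median 6.66). All tumour groups overlapped each other, and the highest tumour array lay just below the lowest control. The log2 difference was -1.88 in all tumours (SE 0.28, limma adjusted p = 1.68e-06), or 3.69-fold, and ran from -1.52 in Olig2-tva-cre:SmoM2 to -2.27 in Ptc1+/- tumours, called in each group. The second probe set differed by -1.41 (SE 0.20) in all tumours and was also lower on all 21 tumour arrays than on any control.

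Gria4, the AMPA receptor subunit that granule neurons and Bergmann glia share, also fell in each group. Its controls measured 11.32, 11.27, 11.17, 11.26, 11.32 and 10.43, the last being control 6, from a Ptc1+/- mouse. Levels in Math1-cre:SmoM2 tumours were 9.49, 10.13 and 9.85, in Tlx3-cre:SmoM2 tumours 9.91, 9.80 and 9.41, and in Ptc1+/- tumours 8.87 and 9.07. Olig2-tva-cre:SmoM2 tumours ranged from 8.55 to 9.94 (median 8.96) and hGFAP-cre:SmoM2 tumours from 9.67 to 10.25 (median 9.92). All 21 tumours lay below control 6, the lowest control, and well below the other 5. The log2 difference was -1.61 in all tumours (SE 0.18, limma adjusted p = 7.90e-09), or 3.04-fold, and ran from -1.17 in hGFAP-cre:SmoM2 to -2.16 in Ptc1+/- tumours. With no scaling the calls in Math1-cre:SmoM2 (-1.22, adjusted p = 0.0914) and Tlx3-cre:SmoM2 tumours (-1.04, adjusted p = 0.141) were lost. The other two probe sets differed by -0.90 (SE 0.26, limma adjusted p = 0.00465) and -1.74 (SE 0.24, limma adjusted p = 4.55e-07).

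Gria2, the subunit whose RNA editing makes AMPA receptors impermeable to calcium, depended on the probe set. The brightest of its 3 probe sets measured 10.69, 10.37, 10.26, 10.66, 10.31 and 10.81 in controls. The Math1-cre:SmoM2 tumours measured 9.74, 9.62 and 10.14, the Tlx3-cre:SmoM2 tumours 10.64, 10.01 and 10.21, and the Ptc1+/- tumours 10.44 and 11.38. Olig2-tva-cre:SmoM2 tumours ranged from 9.62 to 11.28 (median 10.15) and hGFAP-cre:SmoM2 tumours from 9.87 to 11.69 (median 10.44). All 3 Math1-cre:SmoM2 tumours lay below the controls, and every other group overlapped them. The log2 difference in all tumours was -0.14 (SE 0.23, 95% interval -0.61 to 0.33, limma adjusted p = 0.639), with no group called.

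The second probe set measured 9.47 to 10.23 in controls, with 19 of 21 tumour arrays below all of them. The third measured 9.27 to 10.43 in controls and 7.25 to 8.88 in tumours, with no overlap. Their log2 differences in all tumours were -1.02 (SE 0.26, limma adjusted p = 0.00141) and -1.71 (SE 0.20, limma adjusted p = 2.49e-08). Gria2 transcripts read by these 2 of 3 probe sets thus fell, and those read by the brightest did not detectably differ. The probe sets also differed within groups. In hGFAP-cre:SmoM2 tumours the difference was 0.11 (SE 0.28) by the brightest probe set and -1.44 (SE 0.24) by the third. In Ptc1+/- tumours it was 0.39 (SE 0.39) and -1.50 (SE 0.34). The values of the third were called lower in both groups, and those of the brightest were not called.

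The array with the highest level of the brightest probe set, hGFAP-cre:SmoM2 tumour 4 at 11.69, was also the array with the highest 3′ to 5′ ratio, and it was the lowest of its group for the third probe set, at 7.98. The other arrays of high ratio measured 10.73 (Olig2-tva-cre:SmoM2 tumour 4), 10.69 (control 1), 11.28 (Olig2-tva-cre:SmoM2 tumour 3) and 11.16 (hGFAP-cre:SmoM2 tumour 6) for the brightest probe set of Gria2. Without these 5 arrays the difference by that probe set was -0.25 (adjusted p = 0.214), and without the 7 dimmest arrays -0.39 (adjusted p = 0.0384). In Math1-cre:SmoM2 tumours it passed without the former (-0.65, adjusted p = 0.0283) and the latter arrays (-0.68, adjusted p = 0.0138), as it did in Olig2-tva-cre:SmoM2 tumours (-0.56, adjusted p = 0.0232, and -0.87, adjusted p = 0.00823). The part of RNA quality and of array brightness in the difference between the probe sets was not tested.

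**Figure D3:**
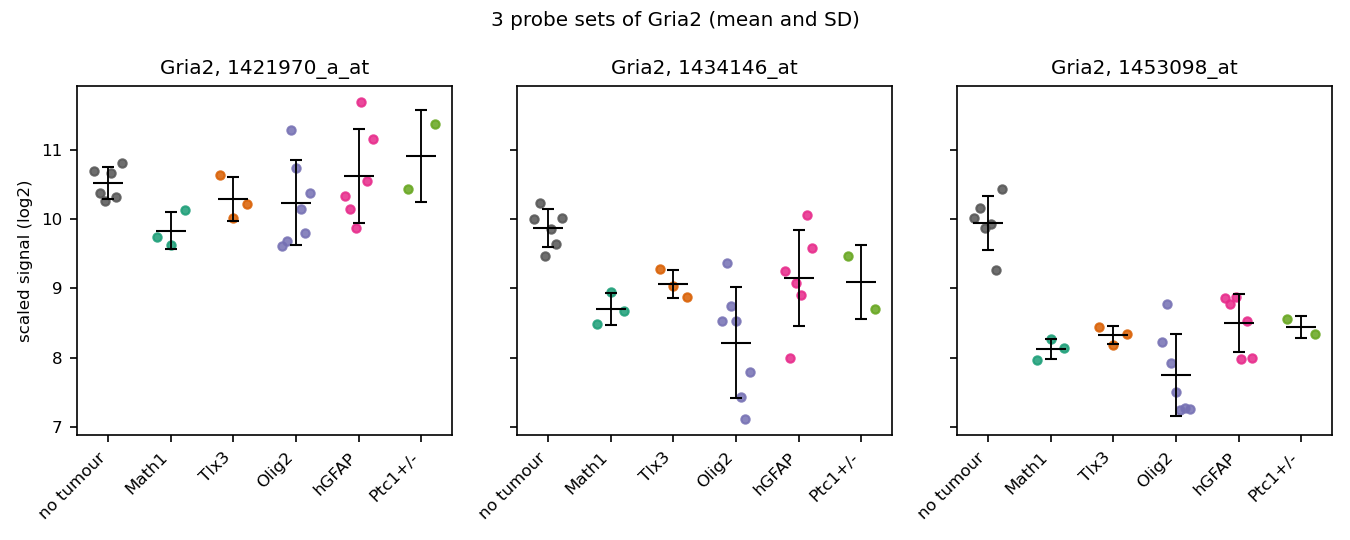
Scaled log2 signal (vertical axis) of the 3 probe sets of Gria2 by group (horizontal axis), with 1 point per array and bars for the mean and SD. The tumours overlap the controls for the brightest probe set (left) and lie below all 6 controls on 19 of 21 arrays for the second (middle) and on 21 of 21 for the third (right).

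The promoters of Gria2 and Gria4 are shown because the brightest probe sets of these AMPA subunits behaved differently. By their other probe sets both genes fell in all tumours. Each promoter is the 250 bases before the RefSeq transcript start on the minus strand of GRCm38.p6. It lies at chr3:80802836-80803085 for Gria2 and at chr9:4796235-4796484 for Gria4. Capitals mark E-boxes (CANNTG) and a match to RE1, the element bound by the neuronal gene repressor Rest (both strands, up to 2 mismatches in its 18 scored letters).
Gria2: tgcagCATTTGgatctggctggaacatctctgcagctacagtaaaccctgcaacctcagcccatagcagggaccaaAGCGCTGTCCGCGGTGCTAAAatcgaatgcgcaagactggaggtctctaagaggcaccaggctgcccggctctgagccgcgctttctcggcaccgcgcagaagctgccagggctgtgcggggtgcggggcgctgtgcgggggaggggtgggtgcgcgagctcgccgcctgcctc
Gria4: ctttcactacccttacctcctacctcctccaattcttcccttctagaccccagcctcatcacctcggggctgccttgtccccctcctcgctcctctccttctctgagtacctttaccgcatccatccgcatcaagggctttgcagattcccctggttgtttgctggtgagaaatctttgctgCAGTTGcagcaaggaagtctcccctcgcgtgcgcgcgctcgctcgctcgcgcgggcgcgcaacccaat
Gria2 held an RE1 match with 2 mismatches on the opposite strand, 174 to 154 bases before the start, and 1 E-box. Of the 32851 promoter windows 13, or 0.0396%, held such a match. Gria4 held 1 E-box, 68 to 63 bases before the start. A match describes letters and does not show that a factor binds there.

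The count of members called was then taken by tumour group, and these comparisons share the 6 controls. In Math1-cre:SmoM2 tumours 4 of 8 members fell, where 18.1% of all genes fell, 19.3% rose and 37.4% did either. In Tlx3-cre:SmoM2 tumours 5 of 8 fell, where 20.6% of all genes fell, 19.7% rose and 40.3% did either. In Olig2-tva-cre:SmoM2 tumours 5 of 8 fell, where 25% of all genes fell, 24.7% rose and 49.6% did either. In hGFAP-cre:SmoM2 tumours 4 of 8 fell, where 19.2% of all genes fell, 22.5% rose and 41.7% did either. In Ptc1+/- tumours 5 of 8 fell, where 18.4% of all genes fell, 17.9% rose and 36.3% did either. Grin2c, Gria1, Gria3 and Gria4 fell in each of the 5 groups. None rose in any group, also at an unadjusted limma p under 0.05. Counted over all 18 probe sets that passed, 11 fell and 0 rose in all tumours, where 22.4% of all probe sets fell and 24.4% rose, and the 11 belong to Grin2c, Grin2d and the 4 AMPA genes.

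Tumours of different drivers were compared to ask whether the origin of the tumour shows in these receptors. Olig2-tva-cre and hGFAP-cre act in broad progenitor pools, and Math1-cre acts in the granule lineage, with Tlx3-cre grouped beside it here. Of the 8 members 0 were called between these pairs of drivers (0.259% of all genes, with 0.118% higher and 0.14% lower), and 3 had an unadjusted limma p under 0.05. The nearest was Gria1, whose mean was 0.94 higher on the log2 scale (SE 0.25, 95% interval 0.42 to 1.46, limma adjusted p = 0.0929) in hGFAP-cre:SmoM2 and Olig2-tva-cre:SmoM2 tumours. These 2 groups hold the 4 tumour arrays of high 3′ to 5′ ratio, and without the 5 arrays of highest ratio the difference was 0.65 (adjusted p = 0.238). The log2 difference of Grin2c between the same groups was -1.23 (SE 0.56, 95% interval -2.39 to -0.08, limma adjusted p = 0.290).

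Across all 4 SmoM2 groups the limma F test called 0 of 8 members (0.946% of all genes), with 4 at an unadjusted p under 0.05. The smallest adjusted p was 0.0554, for Gria1. In Ptc1+/- against SmoM2 tumours 0 of 8 were called (0.547% of all genes, with 0.0444% higher and 0.503% lower), with 5 at an unadjusted limma p under 0.05. Gria1 was nearest there as well, with a log2 difference of -1.44 (SE 0.38, 95% interval -2.23 to -0.66, limma adjusted p = 0.0892). This comparison turned on which of the 2 Ptc1+/- tumours was used. The difference was -2.46 (limma adjusted p = 0.0120) without tumour 2, which is also 1 of the 7 dimmest arrays, and -0.43 (limma adjusted p = 0.627) without tumour 1. Each of these values sets 1 array against the others and assumes that it varies like the other groups.

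The partners of these receptors moved in both directions in all tumours, where 25.6% of all genes fell, 26.8% rose and 52.4% did either. Of the 6 tested kainate and delta receptor subunits 4 fell and 0 rose, with a median log2 difference of -0.96 against 0.02 for all genes. The lowest was Grik3 (-2.96, SE 0.37), a kainate receptor subunit, and Grik2 (0.05, SE 0.24) and Grik5 (0.57, SE 0.26, limma adjusted p = 0.0715) were not called. Of the 5 tested metabotropic receptors, which signal through G proteins, 4 fell and 1 rose, with a median of -2.55. Grm4, a presynaptic receptor of granule neuron axons, was the lowest (-3.32, SE 0.32), and Grm5 rose (0.78, SE 0.29, limma adjusted p = 0.0265).

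Auxiliary subunits, which ride on the receptor and set its surface level and kinetics, had 4 risers, 4 fallers and 5 not called among 13 tested, with a median of -0.07. As a list they were thus near the shares of all genes. The largest rise among them was Gsg1l, an AMPA receptor partner, from a log2 level of 3.97 ± 0.66 in controls (2 of 6 at the floor) to group means of 7.73 to 8.65 in tumours. Its log2 difference was 4.00 in all tumours (SE 0.23, limma adjusted p = 1.15e-14) and was called in each tumour group. Shisa6, which slows AMPA receptor desensitization, had the largest fall of the list (-3.03, SE 0.33). Cacng2, the stargazin of cerebellar granule neurons, was not called (-0.08, SE 0.14, 95% interval -0.38 to 0.21).

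Among postsynaptic scaffold genes 8 of 11 tested fell and 2 rose (median -1.88), from Dlgap1, a binding partner of PSD-95, at -2.88 (SE 0.28) to Homer2 at 1.98 (SE 0.24). Dlg4, which encodes PSD-95 itself, differed by -2.81 (SE 0.33). Of 16 receptor trafficking and kinase genes 11 fell and 2 rose (median -1.11). The extremes were Camk2a, the calcium-dependent kinase of synaptic plasticity (-3.89, SE 0.29), and Grip1, which binds the tails of Gria2 and Gria3 (2.75, SE 0.27).

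The transporters that load glutamate into vesicles ran in opposite directions. Slc17a6, the transporter of young granule neurons, had a log2 level of 4.38 ± 1.62 in controls, 4 of 6 of them at the floor, and group means of 8.55 to 9.91 in tumours, a difference of 4.82 (SE 0.39, limma adjusted p = 1.50e-11) that the floor understates. Slc17a7, the transporter that dominates in mature granule neurons, went from 8.92 ± 0.42 in controls to group means of 4.95 to 5.83, a difference of -3.42 (SE 0.23, limma adjusted p = 6.37e-13). Of 5 genes that make or clear the NMDA receptor co-agonists glycine and D-serine, 3 fell and 1 rose, with Dao, which degrades D-serine, at -3.58 (SE 0.26) and Phgdh, which starts serine synthesis, at 1.78 (SE 0.14). All 3 RNA editing genes fell, with Adarb1, the enzyme that edits Gria2 RNA, at -2.68 (SE 0.38, limma adjusted p = 8.33e-07) and Adar at -0.74 (SE 0.14).

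**Figure D4:**
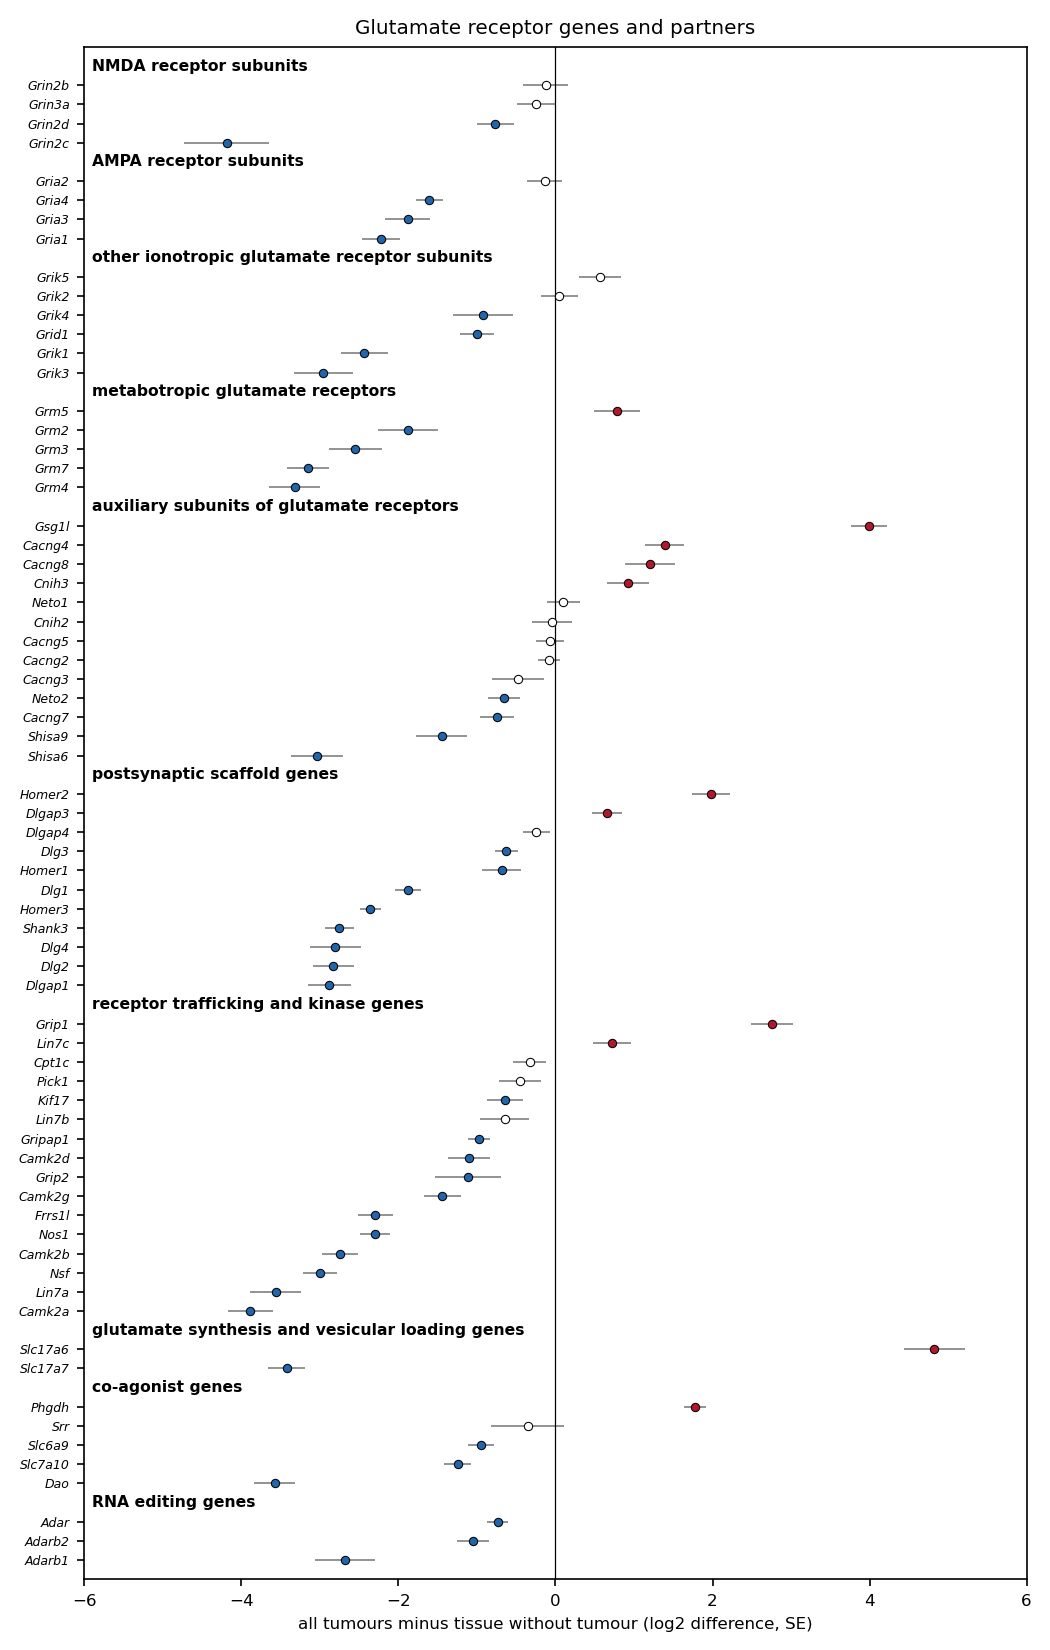
Log2 difference between all tumours and tissue without tumour (horizontal axis, bars for the SE) for each tested receptor subunit and partner gene (vertical axis), blue where limma called it lower, red where it called it higher and white where not called. Kinases and scaffolds lie mostly to the left, Gsg1l and Slc17a6 lie farthest to the right, and Grin2c is the lowest gene shown at -4.19.

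Cell type markers moved in both directions in all tumours, where 25.6% of all genes fell and 26.8% rose. Those of mature neurons, astrocytes and oligodendrocytes fell. All 6 tested mature granule neuron markers fell, from Gabra6 (-5.46) to Rbfox3 (-0.98), and their summed signal ran from 16683 to 25208 in controls and from 1805 to 6603 in tumours. All 7 Purkinje cell markers fell, with Slc1a6 the lowest (-5.27), and their sum went from 20140 to 28534 in controls to between 339 and 3678 in tumours. Of 7 Bergmann glia and astrocyte markers all fell, with sums of 12249 to 16269 in controls and 4240 to 9745 in tumours. All 6 GABAergic interneuron markers also fell, with sums of 6928 to 9168 against 230 to 1874, and all 4 oligodendrocyte markers, with sums of 5616 to 10056 against 157 to 4083. The Purkinje cell transporter Slc1a6 was at the floor on all Math1-cre:SmoM2 and Ptc1+/- tumour arrays, the interneuron vesicular transporter Slc32a1 on both Ptc1+/- arrays and the myelin gene Mog on all 3 Math1-cre:SmoM2 arrays.

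In the other direction, all 6 granule neuron precursor markers rose, with sums of 252 to 683 in controls and 9133 to 18043 in tumours, and so did 4 of 5 immature neuron markers, with sums of 606 to 978 against 5092 to 15742. All 3 tested cell division markers rose too, with sums of 59 to 204 against 2096 to 8527. All 4 oligodendrocyte precursor markers rose (sums of 411 to 810 against 1688 to 4977), as did all 5 microglia markers (841 to 1311 against 1631 to 3953). The part of these cell types in the lower receptor transcripts was not tested.

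Grin2c was set beside the marker sums over the 21 tumour arrays, as a description without a test, since the points share the brightness of their array and its group. Pearson's r of Grin2c with the log2 sum was 0.643 for Purkinje cell markers (Spearman's rho 0.734), 0.640 for oligodendrocyte markers (rho 0.755) and 0.550 for mature granule neuron markers (rho 0.596). It was 0.602 for GABAergic interneuron markers (rho 0.652) and -0.018 for Bergmann glia and astrocyte markers (rho 0.071). Tumour arrays with more Grin2c thus tended to have higher sums of these lists, apart from that of Bergmann glia and astrocytes. The 3 Math1-cre:SmoM2 tumours, with Grin2c at 4.42, 7.65 and 8.17, did not follow this for Purkinje cell markers (11.01, 10.96 and 10.75) or oligodendrocyte markers (11.06, 10.72 and 10.06). Nor did they for GABAergic interneuron markers (9.37, 9.25 and 9.12), while their mature granule neuron sums were 11.47, 11.85 and 11.88. The relation to mature granule neuron markers was not particular to Grin2c. With that sum r was 0.726 for Gria1, 0.639 for Grin2b, 0.633 for Gria4 and 0.551 for Gria3. It was 0.358 for Grin2d, 0.301 for Gria2 and 0.148 for Grin3a.

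**Figure D5:**
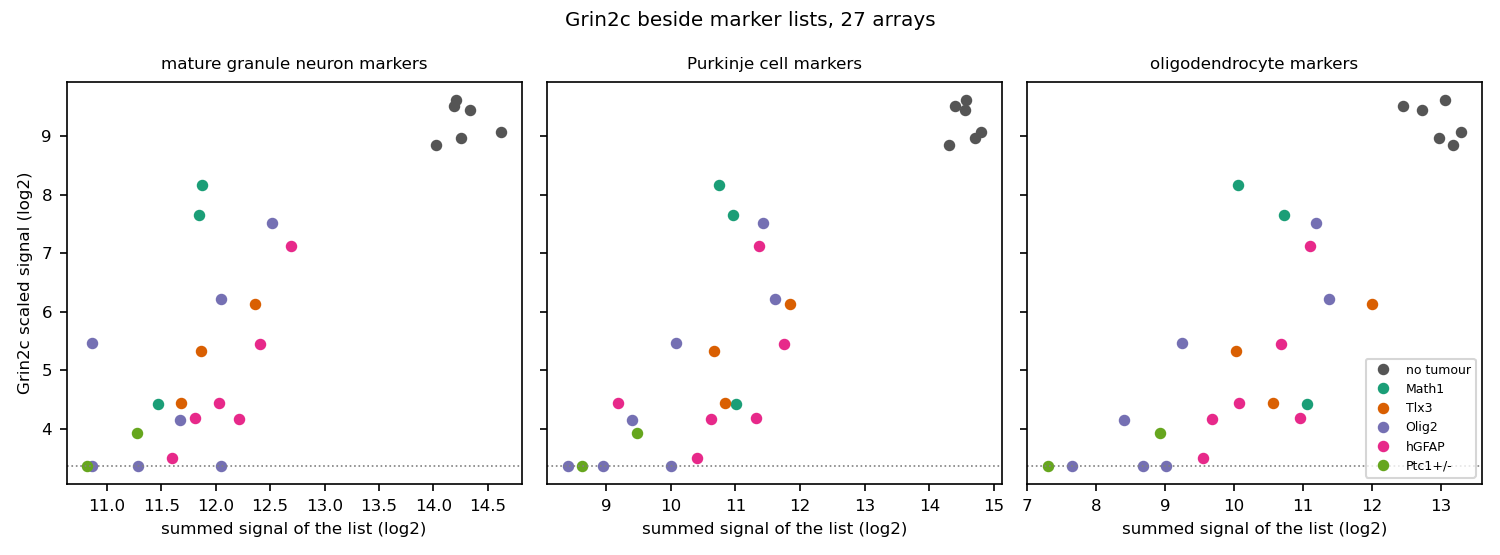
Scaled log2 signal of Grin2c (vertical axis) against the log2 summed signal (horizontal axis) of mature granule neuron, Purkinje cell and oligodendrocyte markers on 27 arrays, coloured by group, with a dotted line at the floor of 3.37. The 6 controls stand apart at the upper right in each panel, and the tumours spread from the floor to 8.17.

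The genes whose levels most resembled those of Grin2b and Grin2c were taken by Pearson r over the 21 tumour arrays, where points share the brightness of their array and its group. For Grin2b they were Slc35e2 (r = 0.870), Ids (r = 0.840), Ppm1d (r = 0.824), Arid1b (r = 0.819) and Upf2 (r = 0.818). For Grin2c they were Camk4 (r = 0.727), Nat8l (r = 0.717), Snhg11 (r = 0.703), the myelin gene Mag (r = 0.699) and Prkar1b (r = 0.696). No gene stood on both lists. Between Grin2b and Grin2c themselves r was 0.27 over the same arrays.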

How the data were processed

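The data are 27 Affymetrix arrays of mouse cerebellum. The deposited table gives intensity on a linear scale for 45101 probe sets, produced by the authors with MAS5 per the submitters' processing notes; version, scaling target and detection calls are not given in the sources used here. Each array was rescaled to a common 2% trimmed mean (123.61), signals below the 20th percentile (10.3) were raised to it, and log2 values were taken. Probe sets above the table median (45.6) on at least 3 arrays were kept (30107), and each gene was read from its probe set of highest mean. The annotation gave 34958 probe sets 1 gene and 932 several, and did not list 9211, which stay unnamed here. limma 3.58.1 (R 4.3.3, trend and robust moderation, tested on simulated data) was fitted to all genes with a mean per group, and p-values were adjusted over 13527 genes by Benjamini-Hochberg. Depth does not apply to arrays, and their number limits the precision. Within-array differences were tested by exact permutation over samples. Promoters came from the RefSeq table. The members, gene lists and alternatives were chosen with earlier results of these data known. Named were all members, called extremes of most partner and some marker lists, and the 5 genes most like Grin2b and Grin2c over tumour arrays. Other listed genes named were chosen after their values were seen. Alternatives changed the scaling, floor, filter, probe set, moderation, weights, block, covariates and arrays.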

Additional observations from a re-analysis of the deposited data

Results flagged for a closer look

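In groups of 4 to 10 arrays the highest and lowest values were checked for standing far from the rest, and 3 of the 27 combinations of a member and a group did so, where chance gives about 1 in 20. Grin2d was 7.86 in hGFAP-cre:SmoM2 tumour 2, above the other 5 tumours of that group. Grin3a was 5.99 in control 6, from a Ptc1+/- mouse, below the other 5 controls. Gria4 was 10.43 in the same control, also below the other 5. No member differed between tumour groups by a test that passed the threshold.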

How the results depend on the processing

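The falls of Grin2c, Gria1, Gria3 and Gria4 in all tumours passed the limma threshold in each of the 45 alternatives run (44 for Grin2c, which fails a filter on 14 arrays), with log2 differences from -4.39 to -3.56, -2.57 to -2.02, -2.23 to -1.65 and -1.96 to -1.41. Members called in all tumours numbered 4 to 6, and Grin2b in all tumours ran from -0.63 to 0.15 and was never called. Its call in Ptc1+/- tumours was lost in 28 of 45. Grin2b minus Grin2c in all tumours shifted by 3.57 to 4.42, and by 1.68 to 3.05 in Math1-cre:SmoM2, 3.69 to 4.80 in Tlx3-cre:SmoM2 and 3.41 to 4.35 in Olig2-tva-cre:SmoM2 tumours. Without the 2 Mxi1-cre:SmoM2 controls the shift was 2.64 and 4.41 in the first 2 groups (adjusted p = 0.0514) and without the 7 dimmest arrays 3.83 in the third (0.0714), each with the smallest exact p so few arrays can give, so that these values say nothing about stability. With the probe set of largest variance the Math1-cre:SmoM2 shift was 1.80 (adjusted p = 0.0584). Gria2, not called in hGFAP-cre:SmoM2 or Ptc1+/- tumours in the main fit, was -0.68 in the former with the mean of its probe sets. With the probe set of largest variance it was -1.44 in hGFAP-cre:SmoM2 and -1.50 in Ptc1+/- tumours, since other probe sets are read. With no scaling the median of all genes in all tumours moved to -0.34 (1549 genes higher and 4055 lower, against 3630 and 3462), and members called were 3 in Tlx3-cre:SmoM2, 8 in Olig2-tva-cre:SmoM2, 4 between drivers, 2 in Ptc1+/- against SmoM2 tumours and 3 by the F test. Under that setting 2332 genes were higher and 1021 lower of 13717 in Tlx3-cre:SmoM2 tumours, 1029 and 5656 in Olig2-tva-cre:SmoM2 tumours, 3 and 6955 between drivers and 1 and 784 in Ptc1+/- against SmoM2 tumours, so that the share of members called between drivers was near that of all genes. It also called Grin2d in Ptc1+/- tumours (-1.73, adjusted p = 0.0144), as array weights did in Math1-cre:SmoM2 tumours (-0.63, adjusted p = 0.0436). Array weights gave 1 between drivers and 2 by the F test. Ptc1+/- against SmoM2 gave 1 with a common median, the mean of probe sets, without the 5 arrays of high 3′ to 5′ ratio and without the 7 dimmest, and 0 to 1 with arrays left out in turn. The F test gave 1 with a pseudocount of 16, the mean of probe sets and without either set of arrays, and 0 to 2 with arrays left out in turn. The cause was not tested. The replicate numbers were not used to pair the samples in the main fit. Correlations between deviations of same-numbered arrays ran from -0.34 to 0.28 (median 0.034), 19 of 49 over 0.1. Those of different-numbered arrays ran from -0.32 to 0.57 (median 0.004), 48 of 244 over 0.1. Whether the numbers link arrays was not tested. The replicate block left 5 members called in all tumours (Grin2c -4.34, Gria1 -2.19) and added a call for Grin3a in Ptc1+/- tumours (-1.34, adjusted p = 0.0112). Low signal limits Grin2a and Grin2c, which lie at the floor on 9 and 4 arrays.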
